A study of Mus musculus with 6 samples.

Results

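The genes described here encode the factors that shorten the poly(A) tail of a messenger RNA, remove its cap and degrade it, together with the RNA-binding proteins that bring these factors to their targets. They were taken by symbol from a list of 38 names, by a rule that uses no measured value, although earlier results of these data were known when the list was drawn up. All 38 were found on the arrays, out of 18997 genes with a name, and each gene was represented by the brightest of its transcript clusters, judged by the mean of all 6 arrays. A transcript cluster is the set of probes that an exon array assigns to one transcription unit.

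RNA was measured in undifferentiated, untreated mouse mesenchymal stem cell clones, 1 array per clone. The cells came from the hindlimb marrow of a 1-year-old mouse with floxed Dicer alleles and carried retroviral SV40 large T antigen. Clones 6 and 12 kept Dicer and are labelled Dicer+/+ (n = 2). Clones 6.8 and 6.9, derived from clone 6, and clones 12.2 and 12.4, derived from clone 12, are labelled Dicer-/- (n = 4) and had passed through adenoviral Cre-GFP infection, a GFP sort and a second round of cloning. No Dicer-carrying clone had passed through those steps, so they cannot be told apart from Dicer loss, and each group member is 1 clone. The array titled as clone 6.9 has a cell type label of clone 6.8, and the title was followed.

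Dicer is the ribonuclease that releases mature microRNAs from their hairpin precursors. A microRNA guides an Argonaute protein to a partly complementary messenger RNA, and the Argonaute partner TNRC6 then recruits the PAN2-PAN3 and CCR4-NOT deadenylases. Shortening of the tail is followed by DDX6-dependent repression of translation, removal of the cap by DCP2 and digestion from the 5′ end by XRN1. The same enzymes act on messages with AU-rich elements, which ZFP36 proteins mark for decay and ELAVL1 protects. The comparison asked whether the transcripts of these factors themselves differed between clones with and without Dicer.

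The microRNA family in the study's title is let-7. Its members are shown because they are the guides whose loss the study addressed. They were not measured on these arrays. In the RefSeq table of build GRCm38.p6, 10 of 11 mature let-7 and miR-98 sequences held the same seed, bases 2 to 8, printed in capitals.
mmu-let-7a-5p: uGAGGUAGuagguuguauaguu
mmu-let-7d-5p: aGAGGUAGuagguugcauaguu
mmu-let-7g-5p: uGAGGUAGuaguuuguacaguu
mmu-miR-98-5p: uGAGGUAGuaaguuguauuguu
These 4 sequences differ from each other in the first base or after the seed. A single position was kept per name, namely chr13:48538239-48538260 (minus strand, Mirlet7a-1), chr13:48536078-48536099 (minus strand, Mirlet7d), chr9:106178846-106178867 (plus strand, Mirlet7g) and chrX:151913229-151913250 (plus strand, Mir98). Any further copies are not listed.

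The deposited values were log2 values, so a difference of 1 is a doubling. The arrays had similar distributions, with medians over named genes of 3.70 and 3.75 on the Dicer-carrying arrays and of 3.62 to 3.67 on the null arrays. Of 9 mesenchymal stromal markers 6 had a mean above 6. Among the others, the stromal surface marker Thy1 lay between 2.52 and 2.74 on every array. Nt5e lay between 2.69 and 4.38, and Pdgfra between 5.15 and 7.02. The 7 haematopoietic markers lay at or below 4.12 and the 6 endothelial markers at or below 3.46. The number of arrays limits the precision of every value below.

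No decay factor passed the test of Dicer loss. In limma with the parental line as a block, 0 of 38 had an adjusted p under 0.05, where 0.590% of all genes did, and the lowest adjusted p among them was 0.166 for Gigyf1. At an unadjusted p under 0.05 limma gave 5 of 38, or 13.2%, namely Gigyf1, Cnot6, Dcp2 and Pum2 higher and Pabpc4 lower. That share was 13.7% over all genes and 23.2% over the 8945 genes with a mean above 4, the level that 37 of the 38 reached. The share of decay factors was therefore not above the background. Their median difference was -0.06, against -0.02 over all genes, with 17 estimates above 0 and 21 below. In absolute size the median difference was 0.31, beside 0.34 for genes with a mean above 4.

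The intervals say how much change the arrays could have hidden. For 21 of the 38 genes, or 55.3%, the 95% interval of the difference lay within 1 log2 unit of 0 on both sides, so that a doubling or a halving lay outside it. The share was 48.7% over genes with a mean above 4. For the other 17 the interval reached beyond 1 log2 unit on at least one side. In bulk RNA, fewer cells with a transcript and less of it per cell cannot be told apart.

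**Figure D1:**
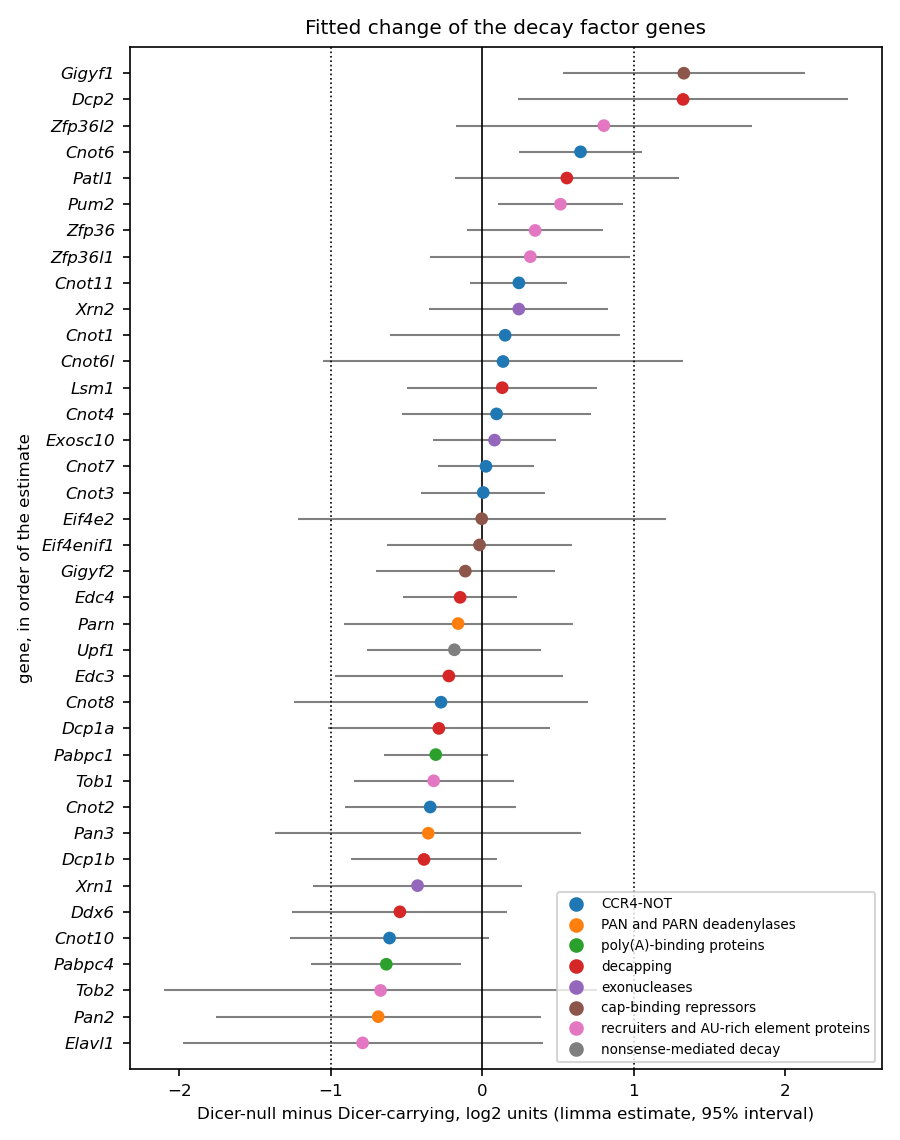
Estimated difference (Dicer-null minus Dicer-carrying, log2 units, points) with 95% limma intervals (lines) for each of the 38 genes, in order of the estimate and coloured by role, with dotted lines at 1 and -1. Estimates ran from -0.79 for Elavl1 to 1.33 for Gigyf1, and the estimates beyond the dotted lines were those of Gigyf1 and Dcp2.

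The CCR4-NOT complex carries most cytoplasmic deadenylation, and 0 of its 10 genes passed in limma, with 1, Cnot6, at an unadjusted p under 0.05. That is 10% of them, below the 23.2% of genes with a mean above 4. Cnot6, one of the exonuclease subunits of the CCR4 type, had log2 levels of 7.98 and 7.37 in clones 6 and 12, of 8.58 and 8.90 in clones 6.8 and 6.9, and of 7.77 and 8.05 in clones 12.2 and 12.4. Every null clone was above its own parent, but clone 12.2 lay below clone 6, so the groups overlapped. The difference was 0.65 ± 0.16 (SE) with a 95% interval of 0.24 to 1.06, an unadjusted limma p of 0.00975 and an adjusted p of 0.182. Its paralogue Cnot6l did not share this pattern. Cnot6l was above its parent in clones 6.9 and 12.4, by 0.79 and 0.61, and below it in clones 6.8 and 12.2, by -0.39 and -0.46.

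The subunits of the CAF1 type, Cnot7 and Cnot8, hold the second deadenylase site of the complex. Cnot7 had levels of 6.70 and 6.90 in the Dicer-carrying clones and of 6.69, 6.89, 6.96 and 6.76 in clones 6.8 and 6.9, then 12.2 and 12.4. Its difference was 0.03 with an interval of -0.29 to 0.34, the narrowest among the 38. Cnot8 lay between 8.46 and 8.77 on 5 arrays and at 7.53 in clone 6.9. The scaffold Cnot1 had levels of 9.82 and 9.65 in the Dicer-carrying clones and of 9.41 to 10.26 in the null clones, which lay on both sides of the parents.

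Of the remaining subunits, Cnot10 was lower in every null clone and the others had smaller differences or both signs. Cnot10, which with Cnot11 forms a module at the end of the scaffold, had levels of 6.73 and 6.71 in clones 6 and 12, of 6.05 and 5.69 in clones 6.8 and 6.9, and of 6.03 and 6.67 in clones 12.2 and 12.4. All null clones were below both Dicer-carrying clones, with a difference of -0.04 between clone 12.4 and its parent. Its difference was -0.61 with an interval of -1.27 to 0.05. Cnot11 itself was slightly higher in every null clone, by 0.07 to 0.36. Cnot2, which with Cnot3 forms the NOT module, was lower by -0.42 and -0.82 in clones 6.8 and 6.9 and by -0.25 in clone 12.2, and higher by 0.12 in clone 12.4. Its difference was -0.34, and it ranged from -0.62 without clone 12 to -0.066 without clone 6. Cnot3 had a difference of 0.01. Cnot4, a ubiquitin ligase that binds the complex, was higher in the clones of line 6 by 0.36 and 0.71 and lower in those of line 12 by -0.32 and -0.37.

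**Figure D2:**
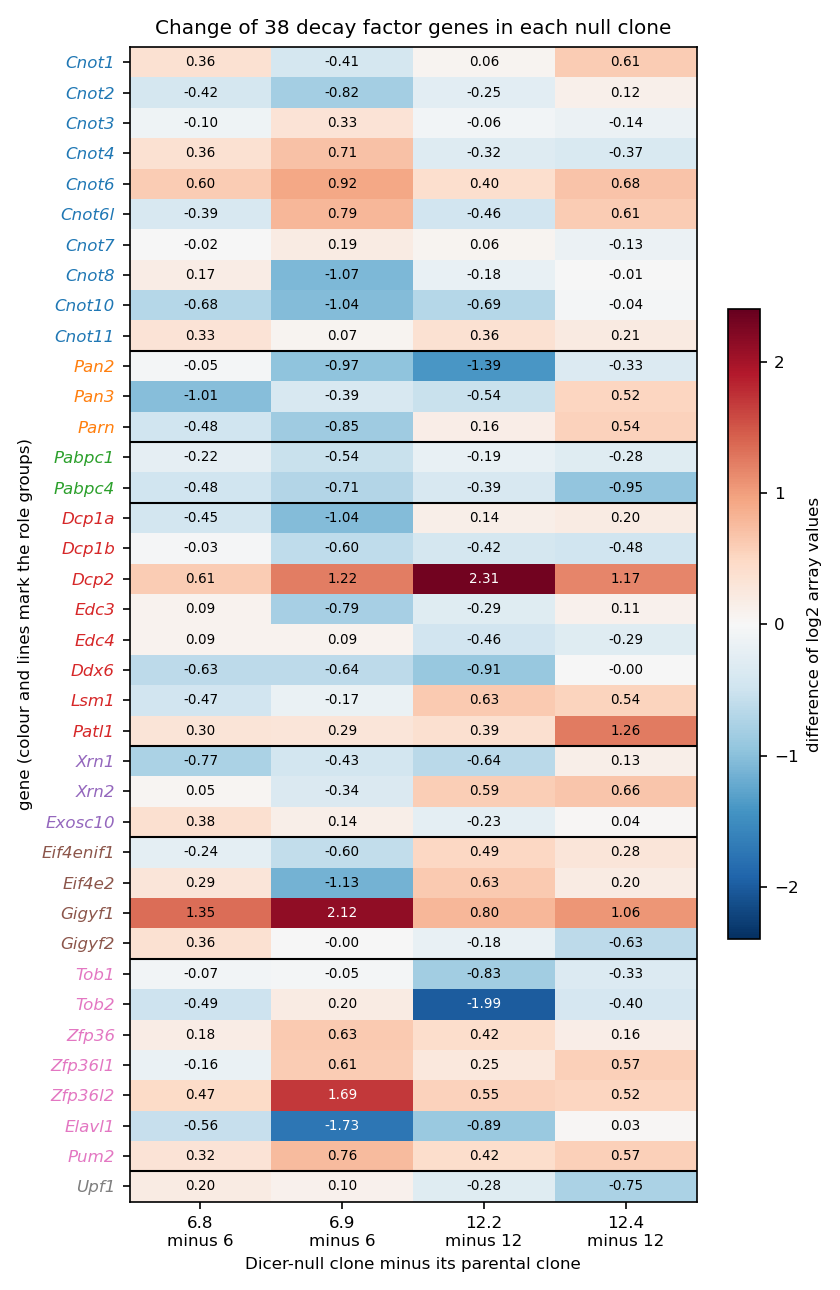
Log2 value of each null clone minus that of its own parental clone (columns) for the 38 genes (rows, grouped by role), with the difference printed in each cell and coloured from blue (lower) to red (higher). Gigyf1, Dcp2 and Zfp36l2 were among 8 genes higher in all 4 columns, and Pabpc1 and Pabpc4 among 7 genes lower in all 4. The remaining 23 of the 38 genes had differences of both signs, as did 5243 of the 8945 genes with a mean above 4.

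The other deadenylases were lower on average and varied between clones. Pan2, the catalytic subunit of the enzyme that makes the first cuts into a tail, had levels of 7.06 and 7.31 in clones 6 and 12, of 7.01 and 6.09 in clones 6.8 and 6.9, and of 5.91 and 6.98 in clones 12.2 and 12.4. The null clones were all below the Dicer-carrying ones, but clones 6.8 and 12.4 differed from their parents by -0.05 and -0.33, and the interval of the difference ran from -1.76 to 0.39. Pan3, its adaptor, was lower by -1.01 in clone 6.8 and higher by 0.52 in clone 12.4. Parn, a deadenylase that trims nuclear non-coding RNAs, was lower in both clones of line 6, by -0.48 and -0.85, and higher in both clones of line 12, by 0.16 and 0.54.

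Poly(A)-binding proteins coat the tail that these enzymes remove. Both genes of this kind among the 38 were lower in every null clone, as were 1913 of the 8945 genes with a mean above 4. Pabpc4 had levels of 9.32 and 9.59 in clones 6 and 12, of 8.84 and 8.61 in clones 6.8 and 6.9, and of 9.20 and 8.64 in clones 12.2 and 12.4. The groups did not overlap. The difference was -0.63 ± 0.19 (SE) with an interval of -1.13 to -0.14, an unadjusted limma p of 0.0223 and an adjusted p of 0.259. A second cluster listed as Pabpc4 gave differences of -0.63, -0.70, -0.44 and -0.94 in clones 6.8 and 6.9, then 12.2 and 12.4. Those values were close to the -0.48, -0.71, -0.39 and -0.95 of the brightest cluster, and whether the clusters share probe targets was not tested.

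Pabpc1, the main cytoplasmic poly(A)-binding protein, had levels of 11.33 and 11.40 in the Dicer-carrying clones and of 11.11, 10.79, 11.21 and 11.12 in clones 6.8 and 6.9, then 12.2 and 12.4. These groups too were separate, with a difference of -0.31 ± 0.13 (SE) and an adjusted p of 0.42 in limma. Its interval was -0.65 to 0.04.

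Over all 38 genes, 4 had every null array above both Dicer-carrying arrays, or 10.5%, against 15.1% of genes with a mean above 4. Another 6 had every null array below, or 15.8%, against 16.2%. The genes above were Gigyf1, Dcp2, Zfp36 and Zfp36l2. Those below were Cnot10, Pan2, Pabpc1, Pabpc4, Dcp1b and Tob1, of which Dcp1b did not have a mean above 4. The shares were near or below the background, so the separation of a single gene's groups is a description of that gene only.

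Among the decapping genes Dcp2, the enzyme that hydrolyses the cap, had the largest estimate. It had levels of 6.59 and 6.33 in clones 6 and 12, of 7.20 and 7.81 in clones 6.8 and 6.9, and of 8.63 and 7.49 in clones 12.2 and 12.4. All null clones were above both Dicer-carrying clones. The difference was 1.33 ± 0.42 (SE), with means of 6.46 ± 0.18 (SD, n = 2) and 7.79 ± 0.62 (SD, n = 4), an interval of 0.24 to 2.42, an unadjusted limma p of 0.0262 and an adjusted p of 0.275. The arrays had 3 clusters for Dcp2. The second gave differences of 0.70, 1.37, 2.71 and 1.70 in clones 6.8 and 6.9, then 12.2 and 12.4, and the third gave -0.0035, 0.49, 1.31 and 0.93. Clone 12.2 had the largest difference in all of them, and clone 6.8 was at the level of its parent in the third.

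Among the partners of Dcp2, Patl1 had estimates of the same sign in all 4 null clones as Dcp2, and the others did not. Dcp1a, an activator of the enzyme, was lower by -0.45 and -1.04 in clones 6.8 and 6.9 and higher by 0.14 and 0.20 in clones 12.2 and 12.4. Its paralogue Dcp1b was lower in every null clone, by -0.03 to -0.60, at levels of 3.33 to 4.12 near the middle of the named genes. It was the 1 decay factor without a mean above 4, so these values may lie near the floor of the arrays. The scaffold Edc4 had a difference of -0.15 with an interval of -0.52 to 0.23. Edc3, another enhancer of decapping, had one of -0.22 with an interval of -0.98 to 0.54. Patl1, which links the deadenylated end to the cap, was higher in every null clone, by 0.30, 0.29 and 0.39 in clones 6.8, 6.9 and 12.2 and by 1.26 in clone 12.4.

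Ddx6 encodes the helicase that CCR4-NOT recruits to silence a message. It had levels of 7.56 and 7.73 in clones 6 and 12, of 6.93 and 6.92 in clones 6.8 and 6.9, of 6.81 in clone 12.2 and of 7.72 in clone 12.4. Clone 12.4 was thus at the level of its parent while the other null clones were lower by -0.63 to -0.91. Clusters of lower signal gave clone 12.4 differences of -0.58 and -0.90, so the clusters of Ddx6 disagree on that clone. They also disagree on clone 6.9, which was higher by 0.33 in the third cluster. The mean difference was -0.54, -0.70 and -0.52 in its 3 clusters. Lsm1, the subunit that marks the cytoplasmic LSM ring, was lower in the clones of line 6, by -0.47 and -0.17, and higher in those of line 12, by 0.63 and 0.54.

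The exonuclease genes differed in direction and in no case passed. Xrn1, the cytoplasmic 5′-to-3′ enzyme, had a difference of -0.43 with an interval of -1.12 to 0.26. It was below its parent in clones 6.8, 6.9 and 12.2 and above it, by 0.13, in clone 12.4. Xrn2, its nuclear relative, had a difference of 0.24 and Exosc10, the nuclear 3′-to-5′ exosome subunit, one of 0.08 with an interval of -0.33 to 0.49. Upf1, the helicase of nonsense-mediated decay, had one of -0.18 with an interval of -0.76 to 0.39.

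Gigyf1 had the largest estimate of the list. It encodes a partner of the cap-binding repressor EIF4E2, which competes with the translation initiation factor EIF4E. Its levels were 4.41 and 4.35 in the parental clones 6 and 12. They were 5.76 and 6.53 in clones 6.8 and 6.9 of the first line, and 5.14 and 5.41 in clones 12.2 and 12.4 of the second. Every null clone was above both Dicer-carrying clones, and clone 6.9 was the highest. The means were 4.38 ± 0.05 (SD, n = 2) and 5.71 ± 0.60 (SD, n = 4). The difference was 1.33 ± 0.31 (SE), a 2.52-fold ratio, with an interval of 0.53 to 2.13, an unadjusted limma p of 0.00813 and an adjusted p of 0.166.

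Other genes of the same repressor did not share this pattern. Its paralogue Gigyf2 had levels of 4.60 and 5.04 in the Dicer-carrying clones and of 4.96, 4.60, 4.86 and 4.41 in clones 6.8 and 6.9, then 12.2 and 12.4, with a difference of -0.11 and an interval of -0.70 to 0.48. The cap-binding protein gene Eif4e2 had levels of 5.73 and 5.61 in the Dicer-carrying clones, between 5.81 and 6.24 in clones 6.8, 12.2 and 12.4, and 4.60 in clone 6.9. Eif4enif1, which ties EIF4E to the decay machinery, was lower in the clones of line 6 by -0.24 and -0.60 and higher in those of line 12 by 0.49 and 0.28.

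**Figure D3:**
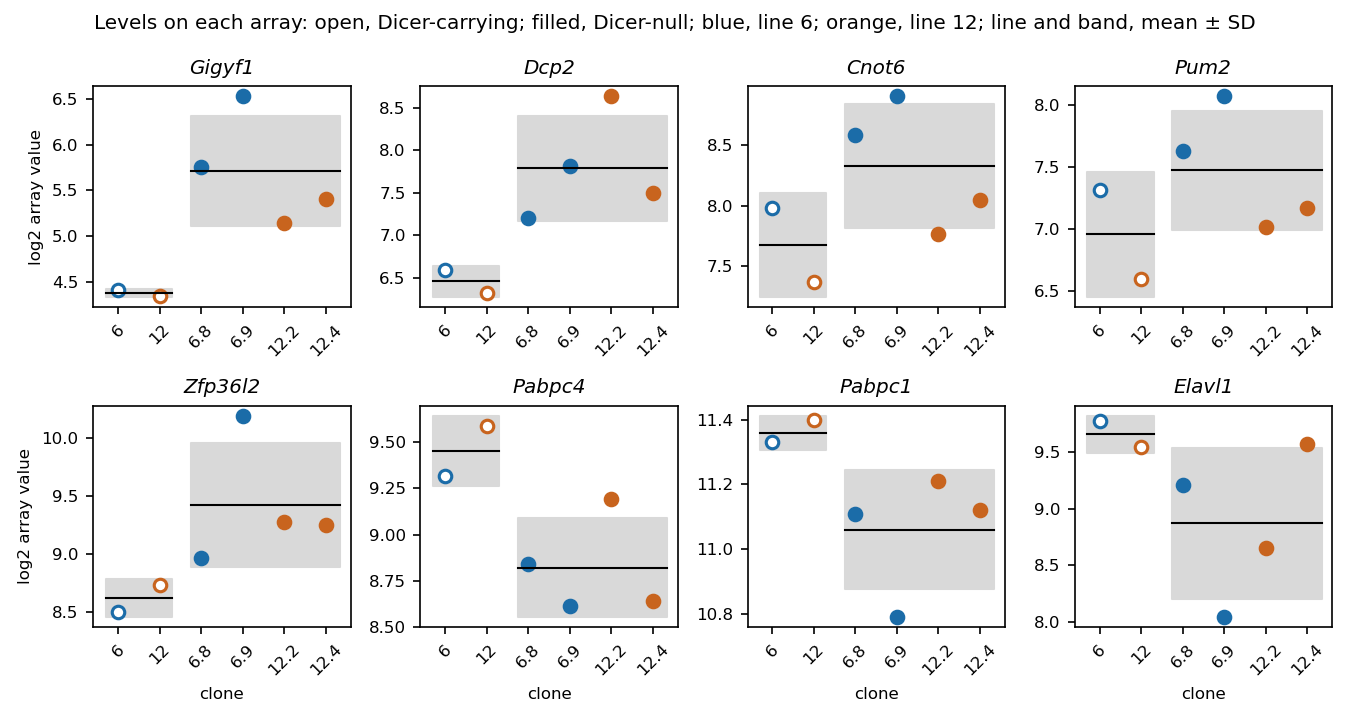
Log2 level on each of the 6 arrays (points) for 8 of the genes, with Dicer-carrying clones open and null clones filled, line 6 in blue and line 12 in orange, and the group mean ± SD as a line and a band. The groups are separate for Gigyf1, Dcp2, Zfp36l2, Pabpc4 and Pabpc1 and overlap for Cnot6, Pum2 and Elavl1, and each vertical axis has its own range.

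The ZFP36 proteins bind AU-rich elements and recruit CCR4-NOT. Zfp36l2 had levels of 8.50 and 8.73 in clones 6 and 12, of 8.97 and 10.19 in clones 6.8 and 6.9, and of 9.28 and 9.25 in clones 12.2 and 12.4. All null clones were above the Dicer-carrying ones, with clone 6.9 highest. The difference was 0.80 ± 0.38 (SE) with an interval of -0.17 to 1.78 and an adjusted p of 0.466 in limma. Without clone 6.9 it was 0.50. Zfp36 itself was higher in every null clone by 0.16 to 0.63, from a mean of 4.81 to one of 5.16. Zfp36l1 was higher in 3 null clones and lower, by -0.16, in clone 6.8.

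Elavl1 encodes HuR, which binds the same elements and stabilises the message. It had levels of 9.78 and 9.55 in clones 6 and 12, of 9.22 and 8.04 in clones 6.8 and 6.9, and of 8.65 and 9.57 in clones 12.2 and 12.4. Clone 12.4 was at its parent's level and clone 6.9 was lower by -1.73. The difference was -0.79 ± 0.46 (SE), the lowest estimate of the list, with an interval of -1.98 to 0.40. It was -0.49 without clone 6.9. Neither this value nor that of Zfp36l2 passed the threshold.

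The TOB proteins bridge poly(A)-binding protein and the CAF1 subunits, and Pum2 recruits CCR4-NOT to messages with Pumilio sites. Tob1 was level with its parent in clones 6.8 and 6.9, at -0.07 and -0.05, and lower by -0.83 and -0.33 in clones 12.2 and 12.4. Tob2 was lower by -1.99 in clone 12.2 in its brightest cluster, where the second cluster gave -0.14, so the 2 clusters of Tob2 disagree. Pum2 was above its parent in every null clone, by 0.32, 0.76, 0.42 and 0.57 in clones 6.8 and 6.9, then 12.2 and 12.4. Clones 12.2 and 12.4 nevertheless lay below clone 6, at 7.01 and 7.17 against 7.32. The difference of Pum2 was 0.52 ± 0.16 (SE) with an adjusted p of 0.263 in limma.

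On some chromosomes the decay factors lay on the same side of 0 as the median of their chromosome, and on others they did not. The median difference of the 257 genes on chromosome 9 with a mean above 6 was -0.48, and it was -0.50, -0.61, -0.59 and -0.22 in clones 6.8 and 6.9, then 12.2 and 12.4. All 4 decay factors on that chromosome, Cnot10, Ddx6, Xrn1 and Edc3, had estimates below 0. On chromosome 12 the median of 138 genes was 0.40, and both decay factors there, Pum2 and Zfp36l1, had estimates above 0. On chromosome 15 the median of 227 genes was 0.09, while both decay factors there, Pabpc1 and Tob2, had estimates below 0. Centring on the chromosome shifts all its genes on an array by the same amount, so genes near the median come near 0 by construction. With each array so centred, an alternative chosen after these values were seen, the difference became -0.03 for Ddx6, -0.09 for Cnot10, 0.09 for Xrn1 and 0.30 for Edc3. It became 0.01 for Pum2 and -0.19 for Zfp36l1. Gigyf1 on chromosome 5 and Dcp2 on chromosome 18 kept 1.35 and 1.29, and Pabpc4 on chromosome 4 kept -0.55. The copy number of the chromosomes was not measured, and its part in these values was not tested.

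**Figure D4:**
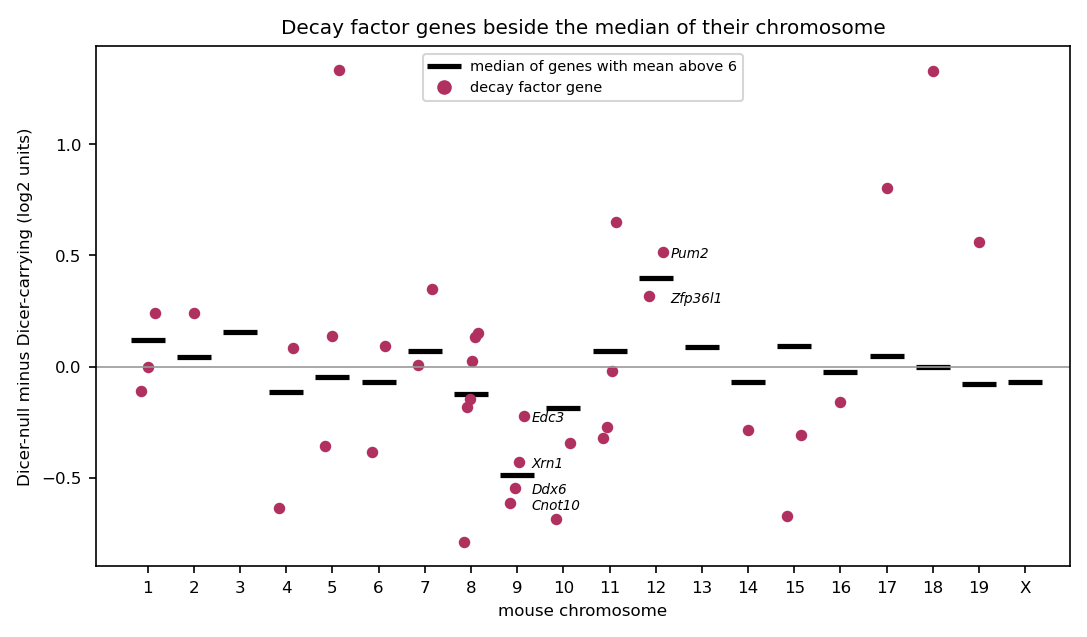
Estimated difference of each decay factor gene (points, log2 units) by mouse chromosome, with the median over all genes of that chromosome with a mean above 6 (bars). The bars of chromosomes 9 and 12 lie farthest from 0, at -0.48 and 0.40, and the named decay factors there lie around their bar.

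The clones also differed in how far they departed from their parents. Clone 6.9 had the largest absolute difference in 21 of the 38 genes, clone 12.2 in 8, clone 12.4 in 6 and clone 6.8 in 3. This count was not taken over all genes, so it cannot be called particular to the decay factors. A difference of over 1 log2 unit was seen in 8 genes in clone 6.9, in 3 each in clones 12.2 and 12.4, and in 2 in clone 6.8. The 8 in clone 6.9 were Gigyf1, Zfp36l2 and Dcp2 on the higher side and Elavl1, Eif4e2, Cnot8, Cnot10 and Dcp1a on the lower. As shares these were 21.1% in clone 6.9, 7.89% in clones 12.2 and 12.4 and 5.26% in clone 6.8. Among genes with a mean above 4 they were 21.5%, 18.4%, 15.5% and 12.9% in clones 6.9, 12.2, 12.4 and 6.8. In clones 6.8, 12.2 and 12.4 the decay factors thus had fewer large differences than that background, a comparison of shares with no test.

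The response of the lines was compared with an interaction contrast in limma, which has 1 Dicer-carrying array per line. It called 0 of 38 decay factors and 0% of all genes, and this does not mean that both lines respond in the same way. At an unadjusted p under 0.05 limma gave 2 of 38, Lsm1 and Cnot4, beside 4.07% of genes with a mean above 4. The difference of responses, line 12 minus line 6, was 0.90 for Lsm1 and -0.88 for Cnot4. The genes with the largest estimates were on the same side in both lines. Gigyf1 had a mean difference of 1.73 in line 6 and 0.93 in line 12, and Dcp2 had 0.92 and 1.74.

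**Figure D5:**
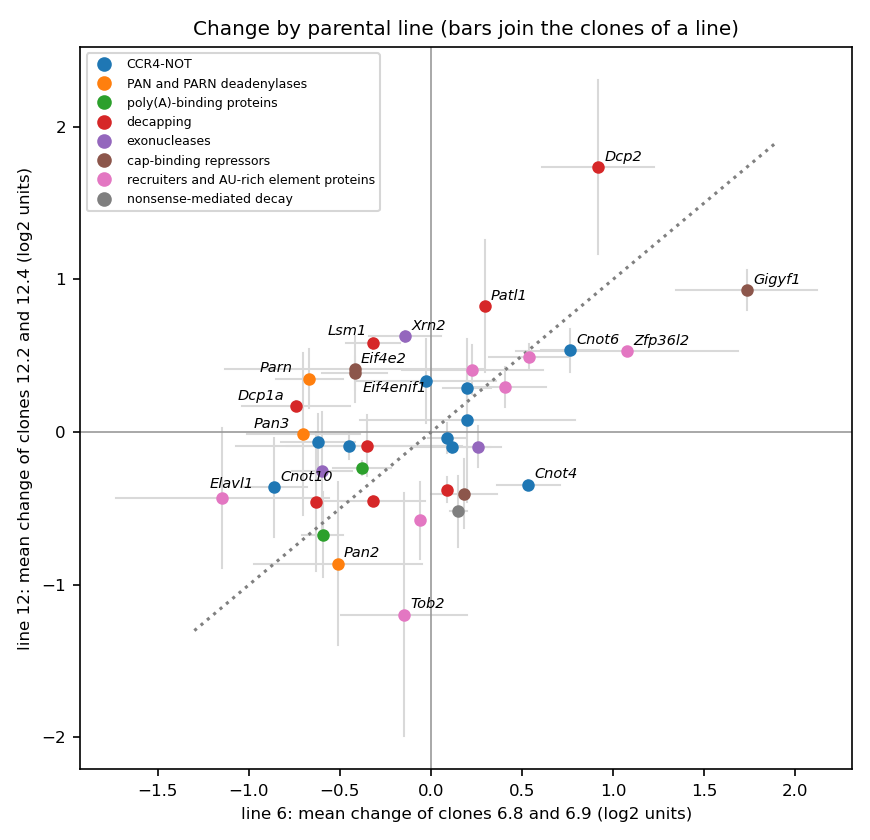
Mean difference of the null clones from their parent in line 6 (horizontal) and line 12 (vertical), in log2 units, for the 38 genes coloured by role, with grey bars joining the clones of a line and a dotted line of equal values. Gigyf1, Dcp2, Cnot6 and Zfp36l2 lie high in both lines, while Parn, Dcp1a, Lsm1 and Eif4enif1 lie left of 0 and above 0.

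Of 91 other genes of messenger RNA decay and its translational partners 81 were measured, and 1 passed in limma, where 0.590% of all genes did. At an unadjusted p under 0.05 limma gave 17, or 21.0%, between the 13.7% of all genes and the 23.2% of genes with a mean above 4. The other 10 of the 91 were not analysed here. Btg2, whose protein belongs to the TOB family and stimulates deadenylation, rose from levels of 5.66 and 5.67 in clones 6 and 12 to 8.43 and 8.27 in clones 6.8 and 6.9 and to 7.81 and 8.74 in clones 12.2 and 12.4. The difference was 2.64 ± 0.28 (SE), with an adjusted p of 0.0481 in limma. With any 1 array left out the adjusted p was above 0.05, at 0.0504 to 0.361 in limma.

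Lsm2 to Lsm7 encode subunits of the LSM ring, which binds the shortened tail and promotes decapping, and had estimates below 0. They are shared by the cytoplasmic ring, which holds Lsm1, and a nuclear ring that binds U6 RNA. Apart from Lsm5 they are named because of values already seen. Lsm5 had levels of 6.68 and 6.17 in clones 6 and 12, of 5.25 and 5.11 in clones 6.8 and 6.9, and of 5.31 and 5.48 in clones 12.2 and 12.4. Its difference was -1.13 ± 0.20 (SE), with an interval of -1.65 to -0.62 and an adjusted p of 0.107 in limma. The differences were -1.10 for Lsm6, -1.05 for Lsm7, -0.93 for Lsm3, -0.41 for Lsm4 and -0.27 for Lsm2, and none of these passed the threshold. The mean differences in lines 6 and 12 were -1.55 and -0.31 for Lsm3, -0.55 and -0.27 for Lsm4, and -0.38 and -0.16 for Lsm2. In each of these 6 genes every null array lay below both Dicer-carrying arrays, which 16.2% of genes with a mean above 4 did. The other 6 measured genes of that list had overlapping groups, and so did Lsm1.

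In the remaining lists 0 genes passed in limma. At an unadjusted p under 0.05 limma gave 3 of 19 exosome and 3′ decay genes, 2 of 9 genes of nonsense-mediated decay, 4 of 22 other RNA-binding proteins and 2 of 7 initiation partners. These were 15.8%, 22.2%, 18.2% and 28.6%, beside the same 13.7% and 23.2%. In the lists that hold Btg2 and Lsm5, of 12 genes each, the shares were 16.7% and 33.3%. The latter was 4 genes, all lower. The largest estimate in the exosome list was that of Mtrex, the nuclear exosome helicase, at 1.02 ± 0.28 (SE). In the list of nonsense-mediated decay it was that of Upf2, at 0.92 ± 0.24 (SE), and among the RNA-binding proteins that of Rc3h2, which recognises stem-loops in immune messages, at 1.27 ± 0.35 (SE). Eif4g3, a scaffold of translation initiation, had the largest of the initiation partners, at -0.60 ± 0.18 (SE). The adjusted p in limma was 0.218 for Mtrex, 0.206 for Upf2, 0.229 for Rc3h2 and 0.254 for Eif4g3.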

How the data were processed

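Total RNA was hybridised to exon arrays, 1 array per clone. The deposited table holds log2 values for 44343 transcript clusters. Partek 6.5 and RMA appear, with neither role nor order, per the submitters' processing notes; the genome build was not given in the sources used here. RMA brings arrays to a common distribution, which hides a shift in RNA content per cell.

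Clusters were named from the platform annotation, updated by Entrez identifier to GRCm38.p6 (22485 of 22781 single-gene clusters matched). Limma 3.58.1 in R 4.3.3 was fitted to all 18997 genes, with terms for parental line (a block) and Dicer status and 3 residual degrees of freedom. P-values were adjusted by the Benjamini-Hochberg method across all of them, and 0.05 was the cutoff. The block comes from the clone numbers. As a check, the line difference in Dicer-carrying arrays correlated at 0.16 with that in null arrays across 5409 genes, which are not independent replicates. Whether any clone was grown in separate cultures is not stated, and p-values therefore reflect the spread among these clones, which may be technical. The fit was tested on simulated arrays.

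The decay factors and the lists were chosen with earlier results of these data known. Named genes were all 38 decay factors and, from each other list, those past the threshold or else the one with the largest estimate. Alternatives were no block, a random block, the mean of the clones of a line, quantile normalisation, centring, a filter on dim genes, other moderation, the mean of clusters and leaving out each array.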

Additional observations from a re-analysis of the deposited data

Results flagged for a closer look

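Over the 4 null clones, 45 results were examined with Dixon's 95% critical value, and 2 had a clone apart from the rest; about 1 in 20 such groups does so by chance. For Ddx6 it was clone 12.4, whose log2 level of 7.72 in the brightest cluster exceeded the remaining null clones. For Rc3h2 it was clone 6.9, whose level of 8.38 exceeded them.

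In 7 of the 38 decay factors both clones of line 6 lay on one side of their parent and both clones of line 12 on the other, which 9.84% of genes with a mean above 4 did. The response of line 12 minus that of line 6 was -0.88 for Cnot4, 1.02 for Parn, 0.91 for Dcp1a, -0.46 for Edc4, 0.90 for Lsm1, 0.81 for Eif4enif1 and -0.67 for Upf1. The interaction contrast in limma gave all of them an adjusted p of 0.9997. The clones of a line share 1 parental array, so a single parental value enters both differences of a line. Dcp1a lies on chromosome 14, where the median of 180 genes was -0.35 and -0.39 in clones 6.8 and 6.9. In clones 12.2 and 12.4 that median was 0.32 and 0.34. Chromosome 16, which holds Parn, had medians of -0.05, -0.20, 0.09 and 0.24 in clones 6.8 and 6.9, then 12.2 and 12.4. The chromosomes of the other genes named here did not split by line in this way. The part of the chromosome in these responses was not tested.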

How the results depend on the processing

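The count of decay factors past the threshold was 0 in each direction in every alternative run that kept both Dicer-carrying arrays. The lowest adjusted p in those runs was 0.119 to 0.282 in limma. At an unadjusted p under 0.05 limma gave 3 to 12 of 38 there, with 12 for the mean of the clones of a line. The share over all genes was not taken in these runs, so whether 12 lies above it cannot be said. Without the parental block (no replicate block) the count past the threshold was also 0, while limma called 67 genes higher and 153 lower against 31 and 81 with it. Without a parental array, the clones of its line carry no contrast. The median difference of the 38 lay between -0.17 and 0.02 over all alternatives. The interaction count stayed 0 in each alternative run for it.

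Some differences turned sign under other settings, and the cause was not tested. With the arrays centred Eif4enif1 became 0.064 and Eif4e2 0.078. Centred on the chromosome, Cnot3 became -0.18, Edc3 0.30, Xrn1 0.090 and Zfp36l1 -0.19. With 1 array left out, the differences ranged from -0.029 to 0.34 for Cnot1, -0.10 to 0.11 for Cnot3, -0.34 to 0.53 for Cnot4, -0.12 to 0.38 for Cnot6l, -0.037 to 0.087 for Cnot7, -0.51 to 0.021 for Cnot8, -0.67 to 0.35 for Parn, -0.74 to 0.17 for Dcp1a. They ranged from -0.38 to 0.086 for Edc4, -0.32 to 0.58 for Lsm1, -0.14 to 0.63 for Xrn2, -0.10 to 0.26 for Exosc10, -0.42 to 0.39 for Eif4enif1, -0.42 to 0.41 for Eif4e2, -0.40 to 0.18 for Gigyf2 and -0.52 to 0.15 for Upf1. Dcp1b had no value with dim genes left out. In other lists the count called higher was 1, Btg2, and became 0 with the mean of the clones of a line, with quantile normalisation, with the arrays centred, with the mean of clusters and without any 1 array (0 to 0). Btg2 itself kept a difference of 2.45 to 2.85 over the alternatives, and the called count rests on an adjusted p close to the threshold. With 1 array per clone, the number of arrays sets the width of every interval.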
